A study of Mus musculus with 4 samples.

Results

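The 10 genes described here are commonly used to mark reactive astrocytes: Cd44, Vim, C4b, C3, Serpina3n, Lcn2, Timp1, Osmr, S1pr3 and Cp. They were taken by gene symbol from a list drawn up with earlier results of these data known, and were 10 of the 17621 genes in the files. Each gene's level is the sum over its transcript models. Of the 10 genes, 8 had a mean of at least 1 CPM (counts scaled to library size) over the 4 libraries and were compared. The other 2, C3 and Lcn2, lay below that minimum and are given as counts.

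Astrocytes respond to injury, infection and inflammation by a graded change of state called reactivity, in which they build more intermediate filament, secrete complement and acute phase proteins and alter the matrix around them. In rodents, cytokines of the interleukin-6 family act through gp130 and STAT3, and interleukin-1 and tumour necrosis factor act largely through NF-κB. These signals, and C1q, switch on overlapping parts of this program. Several of its genes are not specific to astrocytes: neural stem cells in culture also make vimentin and CD44.

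The cells were primary neural stem cells from the cortex of newborn mice, kept on laminin and poly-L-ornithine. The iKO group at day 3 carried the genotype cmv-cre-ert,seh1 f/f and had been moved to differentiation medium, from which EGF and bFGF were withdrawn. The Ctrl group at day 3 carried Seh1 f/f in the same medium. The iKO group at day 0 carried cmv-cre-ert,seh1 f/f in growth medium with both factors, and the Ctrl group at day 0 carried Seh1 f/f in growth medium. Both genotypes therefore share the floxed Seh1 alleles, and the recombinase is named in iKO only, so its presence and the loss of Seh1, a nuclear pore and GATOR2 protein, cannot be told apart. The labels name no inducer, no age of the cultures and no number of animals behind each culture.

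Each group held 1 library, so the spread between cultures is unknown and p-values are not given. Library totals lay between 19611788 and 21040590 expected counts. Levels are CPM after TMM scaling, and intervals in parentheses are 95% intervals of counting error only. Calls of higher or lower mean a log2(CPM + 1) difference of 1 or more, that is 2-fold on that scale. A gene with a CPM ratio above 2 can therefore go uncalled, above all at low levels. The targeted gene Seh1l was at 11.0 CPM in iKO against 33.2 CPM in Ctrl at day 3, and at 19.2 CPM in iKO against 40.3 CPM in Ctrl at day 0. The labels do not name the floxed exons, and the counts cover the whole gene. The comparisons of genotype and of day use the same 4 libraries.

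Promoter sequences are shown for 4 of the genes because their calls below differ: Osmr was called higher in iKO at both days, Serpina3n at day 0, Cd44 at day 3, and C3 was near 0 throughout. The sequences are RefSeq promoters of build GRCm38.p6, from 250 bases before to 50 bases after the transcription start, 5′ to 3′ on the gene's strand. The windows are chr15:6874264-6874563 (minus strand) for Osmr, chr12:104406458-104406757 (plus strand) for Serpina3n, chr2:102901616-102901915 (minus strand) for Cd44 and chr17:57228087-57228386 (minus strand) for C3. Capitals mark matches on either strand to the NF-κB motif (GGGA, 4 bases of any kind, CC) or the AP-1 motif TGANTCA.
Osmr: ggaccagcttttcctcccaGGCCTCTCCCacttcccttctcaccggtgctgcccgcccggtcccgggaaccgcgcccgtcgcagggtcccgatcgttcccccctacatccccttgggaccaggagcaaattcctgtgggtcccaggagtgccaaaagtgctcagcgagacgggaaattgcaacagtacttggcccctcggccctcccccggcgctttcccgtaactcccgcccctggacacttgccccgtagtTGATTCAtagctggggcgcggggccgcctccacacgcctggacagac
Serpina3n: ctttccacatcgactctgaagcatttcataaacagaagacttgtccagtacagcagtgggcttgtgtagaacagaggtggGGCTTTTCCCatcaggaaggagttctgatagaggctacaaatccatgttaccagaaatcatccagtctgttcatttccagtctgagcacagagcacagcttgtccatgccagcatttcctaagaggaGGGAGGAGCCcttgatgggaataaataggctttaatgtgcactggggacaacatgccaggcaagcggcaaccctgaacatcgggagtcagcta
Cd44: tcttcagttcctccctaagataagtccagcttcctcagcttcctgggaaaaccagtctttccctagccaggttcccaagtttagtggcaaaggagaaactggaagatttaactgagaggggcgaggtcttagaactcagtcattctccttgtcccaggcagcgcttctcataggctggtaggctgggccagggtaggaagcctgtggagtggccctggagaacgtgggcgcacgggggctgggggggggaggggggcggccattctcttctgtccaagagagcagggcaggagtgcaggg
C3: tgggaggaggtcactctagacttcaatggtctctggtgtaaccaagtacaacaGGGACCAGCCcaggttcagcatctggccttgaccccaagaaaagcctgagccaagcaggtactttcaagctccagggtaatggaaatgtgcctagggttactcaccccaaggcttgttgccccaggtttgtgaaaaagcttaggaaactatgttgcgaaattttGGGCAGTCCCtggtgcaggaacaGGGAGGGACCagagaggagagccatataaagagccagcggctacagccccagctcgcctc

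The promoter table held 10 windows for 9 of the genes, and C4b had none in it. The NF-κB motif was found in 6 of the 10 windows, against 20.7% of all 32851 windows in the table. Those 6 belonged to C3, Cp, Osmr, S1pr3, Serpina3n and Vim. AP-1 matches lay in 2 windows, of Osmr and Cp, against 7.81% of all windows. The STAT motif TTCNNNGAA was in none of the 10 windows, against 8.3% of all windows, which says only that these letters are not in these stretches. No match of one motif overlapped a match of another in the windows shown. In the 4 windows printed above, C3 holds 3 matches, Serpina3n 2 and Osmr 2, whereas Cd44 holds none. C3, with 3 matches, was close to 0 in all 4 libraries, and a relation of match number to level was not tested.

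**Figure D1:**
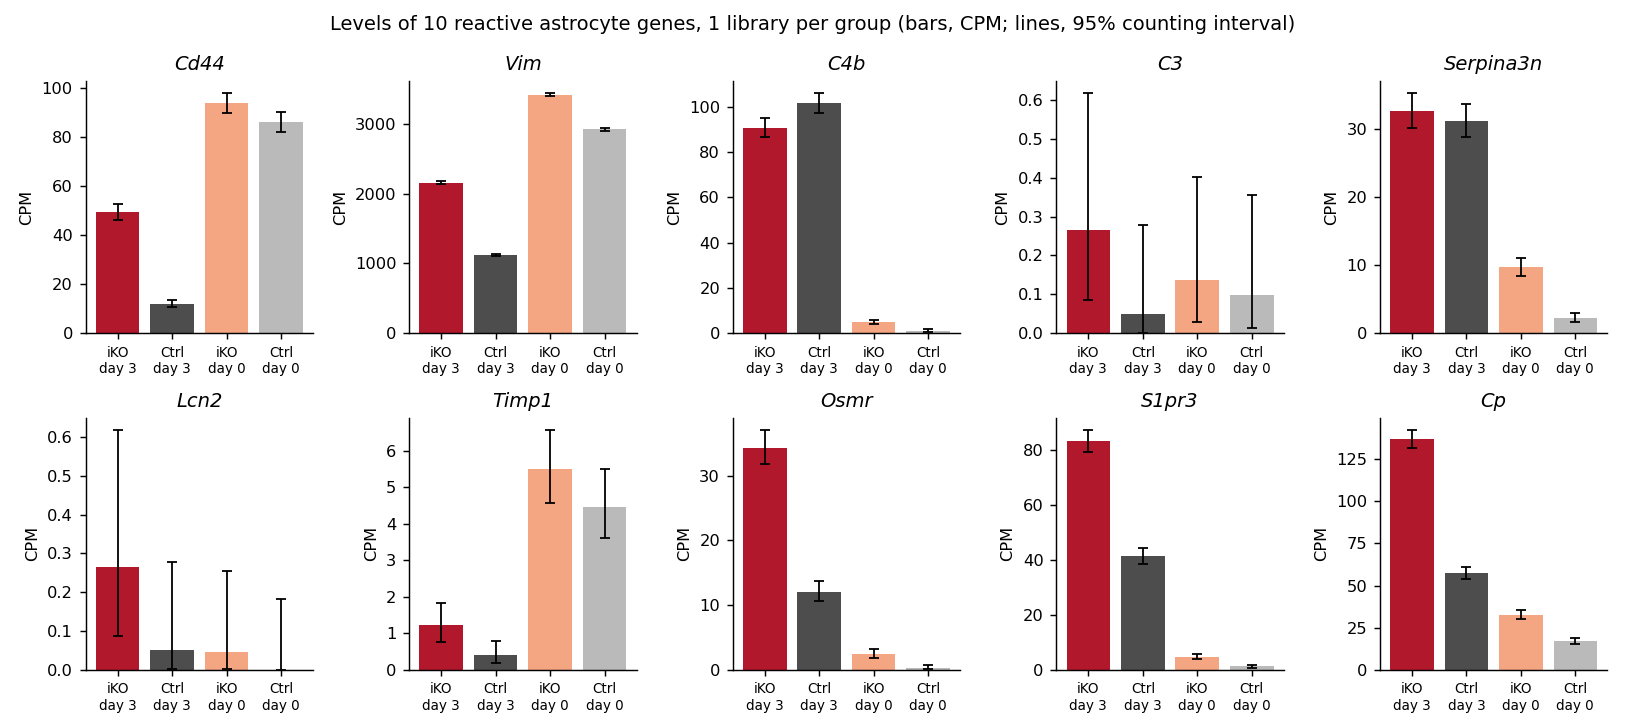
CPM of each of the 10 genes in the 4 libraries, 1 library per group, from left to right iKO at day 3, Ctrl at day 3, iKO at day 0 and Ctrl at day 0; bars start at 0, lines are 95% counting intervals and the vertical scale differs between genes. C4b, Serpina3n, Osmr, S1pr3 and Cp stand higher at day 3, Cd44, Vim and Timp1 stand higher at day 0, and C3 and Lcn2 stay below 0.3 CPM.

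The genes differed widely in level. Compared per length, in FPKM, Vim stood far above the others, at 1137 FPKM in iKO and 628 FPKM in Ctrl at day 3, and 1977 FPKM in iKO and 1546 FPKM in Ctrl at day 0. It ranked 26th and 48th of 17621 genes in iKO and Ctrl at day 3, and 6th and 12th in iKO and Ctrl at day 0. Vimentin (NCBI gene 22352, spanning 13574311 to 13582826 on chromosome 2 of GRCm38) is the intermediate filament protein of neural stem cells and immature astrocytes. At day 3 in iKO the order below Vim was Cp (26.0 FPKM), S1pr3 (17.8), C4b (16.1), Serpina3n (15.1), Cd44 (10.6), Osmr (6.90) and Timp1 (1.37). In Ctrl at day 0 the order below Vim was Cd44 (18.7 FPKM), Timp1 (4.99), Cp (3.14), Serpina3n (1.00), S1pr3 (0.25), C4b (0.18) and Osmr (0.07). With 1 library per group, no spread separates neighbours in these orders.

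Lcn2 and C3, which are among the genes most often used to call astrocytes reactive, were at the limit of detection. Lcn2, which encodes lipocalin-2, a secreted protein that binds iron-carrying siderophores (NCBI gene 16819, spanning 32384637 to 32387739 on chromosome 2 of GRCm38), had 5 counts in iKO and 1 in Ctrl at day 3, and 1 in iKO and 0 in Ctrl at day 0. C3, the central component of complement (NCBI gene 12266, spanning 57203967 to 57228136 on chromosome 17 of GRCm38), had 5 counts in iKO and 1 in Ctrl at day 3, and 3 in iKO and 2 in Ctrl at day 0. For each gene the day 3 ratio of iKO to Ctrl was 5.33 with an interval of 0.596 to 252.0, so a difference was not detectable at this depth. A floor of 3 counts corresponds to 0.159 CPM in iKO against 0.149 CPM in Ctrl at day 3, and to 0.138 CPM in iKO against 0.148 CPM in Ctrl at day 0. The results below therefore concern the other 8 genes.

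After growth factor withdrawal, iKO cells held more Cd44, Osmr and Cp than Ctrl cells. Of the 8 measured genes these 3 were called higher in iKO and 0 lower, where 6.28% of all 12976 genes compared were higher and 4.78% lower. Their log2 ratios ranged from -0.16 to 1.96, with 7 of 8 above 0, as were 48.7% of all genes, and the median was 0.96 against -0.01 over all genes. Cd44, the receptor for the matrix polymer hyaluronan (NCBI gene 12505, spanning 102811141 to 102901669 on chromosome 2 of GRCm38), was at 49.3 CPM in iKO against 11.9 CPM in Ctrl, 4.13-fold higher (3.58 to 4.78). Vim was at 2156 CPM in iKO against 1125 CPM in Ctrl, 1.92-fold higher (1.89 to 1.95), just under the threshold on the log2(CPM + 1) scale. So the receptor and the filament protein stood on the iKO side together, but to different degrees. The 12 neural stem and progenitor genes listed had a median log2 ratio of -0.32 at day 3.

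The cytokine receptor and the lipid receptor were also higher. Osmr, the oncostatin M receptor subunit that pairs with gp130 (NCBI gene 18414, spanning 6813568 to 6874968 on chromosome 15 of GRCm38), was at 34.3 CPM in iKO against 12.04 CPM in Ctrl at day 3, 2.85-fold higher (2.46 to 3.32). S1pr3, a receptor for sphingosine 1-phosphate (NCBI gene 13610, spanning 51408618 to 51422797 on chromosome 13 of GRCm38), was at 83.3 CPM in iKO against 41.5 CPM in Ctrl, 2.01-fold higher (1.84 to 2.19). Its log2 ratio of 0.99 fell just short of the threshold, and a pseudocount of 0.1 CPM put it at 1.00.

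Among the secreted proteins, Cp stood apart from Serpina3n and C4b at day 3. Cp encodes ceruloplasmin, a copper-containing ferroxidase (NCBI gene 12870, spanning 19956933 to 20009750 on chromosome 3 of GRCm38), and was at 137 CPM in iKO against 57.3 CPM in Ctrl, 2.39-fold higher (2.23 to 2.57). Serpina3n, a secreted inhibitor of serine proteases (NCBI gene 20716, spanning 104406646 to 104414334 on chromosome 12 of GRCm38), was at 32.5 CPM in iKO against 31.1 CPM in Ctrl, a ratio of 1.05 (0.934 to 1.17). Its direction turned when library totals (log2 ratio -0.02) or FPKM (-0.02) were used. C4b, the mouse gene of complement component 4 (NCBI gene 12268, spanning 34728139 to 34743902 on chromosome 17 of GRCm38), was at 90.8 CPM in iKO against 102 CPM in Ctrl, 1.12-fold lower (1.05 to 1.19). Timp1, an inhibitor of metalloproteinases (NCBI gene 21857, spanning 20870166 to 20874737 on chromosome X of GRCm38), had 23 counts in iKO and 8 in Ctrl at day 3, 3.06-fold higher (1.32 to 7.92). At that level its log2 ratio was 0.67 with the pseudocount of 1 CPM and 1.41 with 0.1 CPM.

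**Figure D2:**
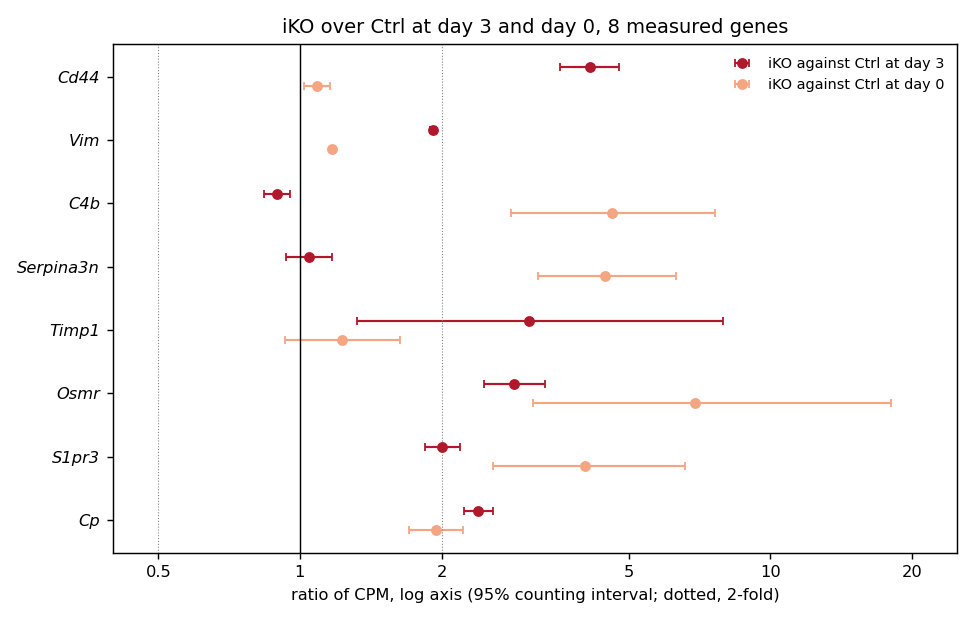
Ratio of CPM in iKO to CPM in Ctrl at day 3 and at day 0 for the 8 measured genes, on a log axis; points are the ratio of 1 library to 1 library and lines are 95% counting intervals, which for Vim are narrower than the point. Cd44 lies at 4.13 at day 3 and 1.09 at day 0, whereas C4b lies at 0.893 at day 3 and 4.61 at day 0.

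In growth medium a partly different set of genes was higher in iKO: C4b, Serpina3n, Osmr and S1pr3. These 4 of 8 measured genes passed 2-fold and none was lower, where 2.67% of all genes were higher and 0.331% lower. All 8 log2 ratios lay above 0, as did 43.5% of all genes, and the median was 1.13 against -0.06 over all genes. C4b was at 4.66 CPM in iKO against 1.01 CPM in Ctrl at day 0, 4.61-fold higher (2.81 to 7.63). Serpina3n was at 9.64 CPM in iKO against 2.16 CPM in Ctrl, 4.45-fold higher (3.20 to 6.31). Both genes were low in growth medium, with 102 and 210 counts in iKO against 21 and 44 counts in Ctrl.

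Osmr and S1pr3 were low as well. Osmr had 52 counts in iKO and 7 in Ctrl at day 0, a ratio of 6.93 (3.14 to 18.1). S1pr3 had 104 counts in iKO and 24 in Ctrl, a ratio of 4.04 (2.57 to 6.59). Cp was at 32.8 CPM in iKO against 16.8 CPM in Ctrl, 1.95-fold higher (1.71 to 2.22), below the threshold, and library totals put it at a log2 ratio of 1.05. Osmr was called higher in iKO at both days, and on this scale no other of the 8 genes was. That depended on the scale: S1pr3 was also called at both days with a pseudocount of 0.1 CPM (log2 ratios 1.00 and 1.93) and Cp with library totals (1.16 and 1.05). Osmr was not called at day 0 with 5 CPM (0.47) or in FPKM (0.53). The share of all genes called higher at both days was not counted, so this overlap has no background beside it.

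In growth medium Cd44, Vim and Timp1 differed least between genotypes. Cd44 was at 93.9 CPM in iKO against 86.2 CPM in Ctrl at day 0, a ratio of 1.09 (1.02 to 1.16). Vim was at 3418 CPM in iKO against 2924 CPM in Ctrl, a ratio of 1.17 (1.16 to 1.18). Timp1 had 120 counts in iKO and 91 in Ctrl, a ratio of 1.23 (0.929 to 1.63). The day 0 calls rest on low levels: with a pseudocount of 5 CPM, or with deposited FPKM and a pseudocount of 1 FPKM, Serpina3n alone remained called.

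The authors' deposited table for day 3 lists 3 of the genes among its 1774 rows. In the authors' deposited table the log2 ratios of iKO to Ctrl were 1.97 for Cd44, 1.44 for Osmr and 1.21 for Cp, with FDR values of 4.71e-96, 3.30e-43 and 1.63e-125. For day 0 the authors' deposited table lists C4b alone of the 10, with a log2 ratio of 2.32 and an FDR of 7.18e-14. Each such FDR compares 1 library with 1 library and does not measure spread between cultures. The last line of the day 0 table breaks off within a number, so absence from it is not read as a negative result.

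From day 0 to day 3 the genes divided into 2 groups, the same in both genotypes. C4b, Serpina3n, Osmr, S1pr3 and Cp were at least 2-fold higher at day 3 in iKO and also in Ctrl. In iKO, 5 genes were higher and 1, Timp1, lower, where 11.2% of all genes were higher and 11.5% lower. In Ctrl, 5 were higher and 3 lower, Cd44, Vim and Timp1, where 14.6% of all genes were higher and 15.1% lower. In iKO 5 of 8 log2 ratios lay above 0 (49.6% of all genes), and in Ctrl 5 of 8 (49% of all genes). Median log2 ratios of day 3 to day 0 were 1.84 in iKO (all genes -0.01) and 2.49 in Ctrl (all genes -0.02).

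C4b had the widest ratio between days, 19.5-fold higher at day 3 in iKO (15.9 to 23.9) and 100.5-fold higher in Ctrl (64.2 to 159). Summed with C4a, its close copy, the ratios were 18.3 in iKO (15.1 to 22.4) and 55.0 in Ctrl (39.9 to 77.9). S1pr3 was 17.5-fold higher at day 3 in iKO (14.3 to 21.5) and 35.1-fold higher in Ctrl (23.5 to 55.2). Osmr was 14.4-fold higher in iKO (10.8 to 19.5) and 35.0-fold higher in Ctrl (16.7 to 87.9). Serpina3n was 3.38-fold higher in iKO (2.88 to 3.97) and 14.4-fold higher in Ctrl (10.6 to 20.0). Without a pseudocount the ratio of each of these 4 genes was smaller in iKO, but on the log2(CPM + 1) scale Osmr was at 3.38 in iKO and 3.28 in Ctrl, and S1pr3 turned with 5 CPM or FPKM. Cp went the other way, 4.19-fold higher at day 3 in iKO (3.85 to 4.55) and 3.41-fold higher in Ctrl (3.02 to 3.85).

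The genes that were lower at day 3 were Cd44, Vim and Timp1. The 12 neural stem and progenitor genes listed had median log2 ratios of day 3 to day 0 of 0.37 in iKO and 0.45 in Ctrl. Cd44 was 1.90-fold lower at day 3 than at day 0 in iKO (1.76 to 2.06) and 7.22-fold lower in Ctrl (6.31 to 8.30). Vim was 1.59-fold lower in iKO (1.57 to 1.60) and 2.60-fold lower in Ctrl (2.56 to 2.64). Timp1 was 4.52-fold lower in iKO (2.87 to 7.40) and 11.2-fold lower in Ctrl (5.47 to 26.8). For all 3 the ratio lay closer to 1 in iKO than in Ctrl.

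**Figure D3:**
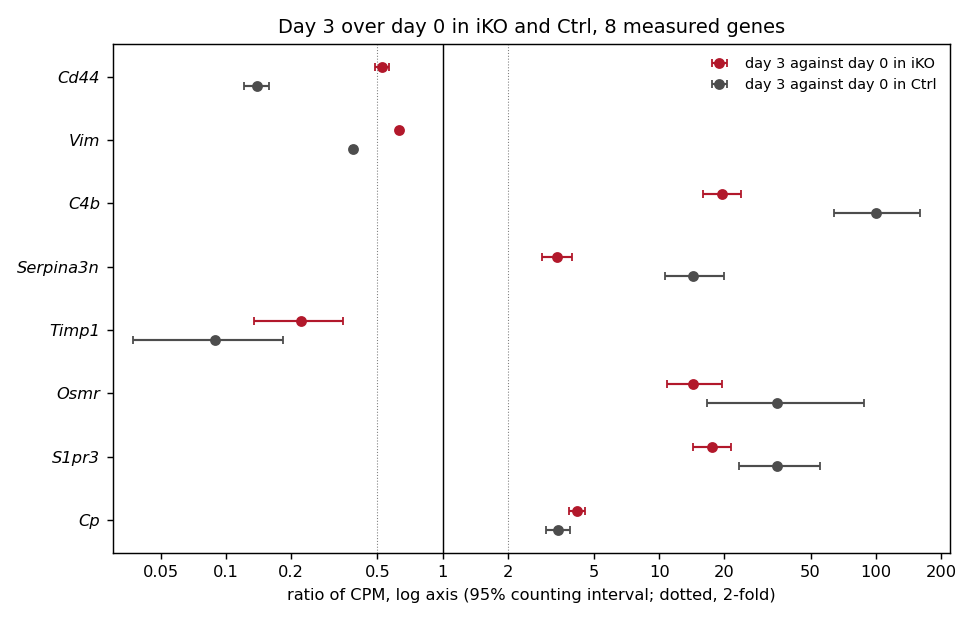
Ratio of CPM at day 3 to CPM at day 0 in iKO and in Ctrl for the 8 measured genes, on a log axis with 95% counting intervals. C4b, Serpina3n, Osmr, S1pr3 and Cp lie right of 2 in both genotypes, and Cd44, Vim and Timp1 lie left of 1, with every one of these 3 further left in Ctrl.

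The difference between the days in the iKO to Ctrl ratio was set out gene by gene. The log2 ratio at day 3 exceeded that at day 0 by at least 1 for Cd44, by 1.84, where 3.71% of all genes did so. It lay below by at least 1 for Serpina3n (-1.69) and C4b (-1.65), where 5.5% of all genes did so. With a pseudocount of 5 CPM neither was called (Serpina3n -0.98, C4b -0.84), and in FPKM C4b was not (-0.92). In all, 5 of 8 differences lay above 0, as did 55.7% of all genes. The remaining differences were 0.71 for Vim, 0.42 for Timp1, 0.32 for Cp, 0.11 for Osmr and -0.42 for S1pr3. Without a pseudocount 3 of these were past 1 in size: Osmr at -1.28 (-2.44 to -0.12), S1pr3 at -1.01 (-1.66 to -0.36) and Timp1 at 1.32 (0.09 to 2.54). Each of these 3 rests on a library with few counts. For Osmr the direction depended on the scale: with a pseudocount of 0.1 CPM it was -0.98 and with library totals -0.04. S1pr3 turned to 0.26 when 5 CPM was added, and to 0.09 in FPKM. The median difference was 0.21, against 0.06 over all genes, and turned to -0.31 with a pseudocount of 0.1 CPM. With 1 library in each group, none of these differences was tested.

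**Figure D4:**
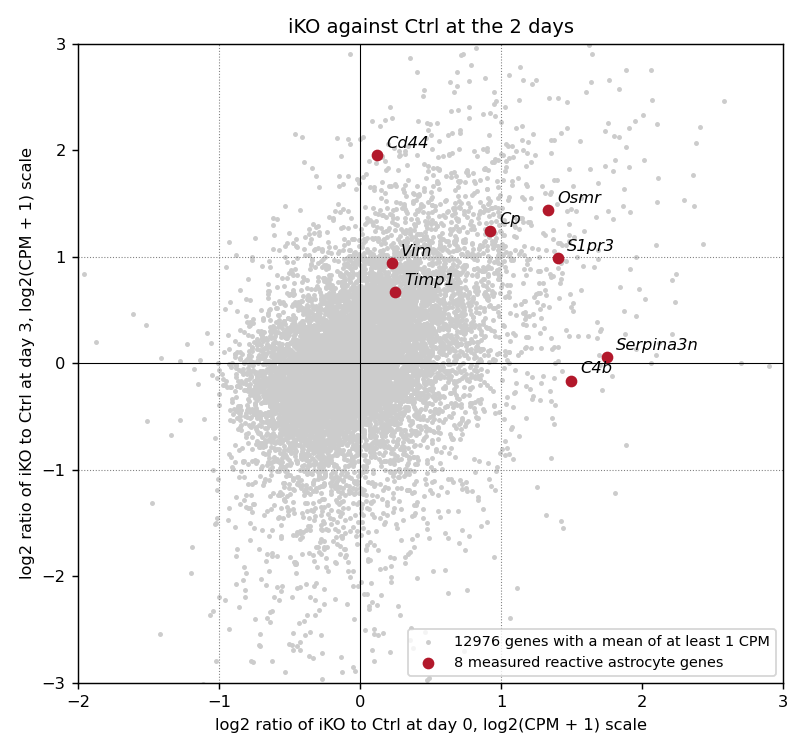
Log2 ratio of iKO to Ctrl at day 0 (horizontal) and at day 3 (vertical) on the log2(CPM + 1) scale for 12976 genes in grey and the 8 measured genes in red; dotted lines mark 2-fold, and 43 genes lie outside the axes. Cd44 lies near 0 at day 0 and at 1.96 at day 3, C4b and Serpina3n lie above 1 at day 0 and near 0 at day 3, and Osmr lies above 1 on both axes.

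Transcript models add detail for Cd44. Its pre-mRNA contains a block of variable exons that the standard form skips. The model with 9 exons, which lacks them, held 97.0% of Cd44 expected counts in iKO and 88.5% in Ctrl at day 3, and 97.7% in iKO and 96.8% in Ctrl at day 0. The other models that could be matched to GENCODE have between 11 and 16 exons. In Ctrl at day 3, 27.62 expected counts lay on the 11-exon model, so the lower share there rests on few reads. For Osmr, 1 of 3 models held all counts at day 0 in both genotypes, and 31.9% in iKO and 50.6% in Ctrl at day 3. For Serpina3n, the second model held 29.0% of counts in Ctrl at day 3 and none in the other 3 libraries. Such splits between overlapping models are estimates. The gene sums of counts above do not depend on them, but sums of FPKM over models of different length can.

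Sequence shared with other genes limits C4b and hardly touches the rest. Of the C4b stretches of 50 bases in GENCODE M21 transcripts, 34.6% also occur in C4a, its neighbour and close copy. Serpina3n shared 6.90% with other genes, Cp 0.618%, Osmr 0.0576%, and the other genes none. C4a itself had 33 counts in iKO and 24 in Ctrl at day 3, and 8 in iKO and 17 in Ctrl at day 0. The sum of C4b and C4a was 2.70-fold higher in iKO at day 0 (1.85 to 4.01), against 4.61-fold for C4b alone, and 1.11-fold lower in iKO at day 3 (1.04 to 1.18). The pair together was thus higher in iKO at day 0, by less than C4b alone. C4a alone lay the other way there, at a ratio of 0.446 (0.164 to 1.07). The sum cannot show how much of the difference belongs to C4b.

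Of 5 other genes of the pan-reactive set 4 were measured, with Steap4 higher in iKO at day 3, Gfap higher at day 0 and none lower. For this and the lists that follow, the share of all genes called higher in iKO was 6.28% at day 3 and 2.67% at day 0, and the share called lower was 4.78% at day 3 and 0.331% at day 0. Gfap encodes a filament protein of astrocytes and is counted again in the astrocyte identity and intermediate filament lists below. At day 3 Gfap was at 194 CPM in iKO against 160 CPM in Ctrl, 1.21-fold higher (1.16 to 1.27). At day 0 Gfap was at 17.1 CPM in iKO against 3.93 CPM in Ctrl, 4.35-fold higher (3.41 to 5.61), so it differed at day 0 and hardly at day 3, like C4b and Serpina3n. Steap4, a metalloreductase, had 75 counts in iKO and 5 in Ctrl at day 3, a ratio of 16.0 (6.55 to 50.7).

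Genes described in mouse astrocytes after endotoxin (A1) or ischaemia (A2) gave mixed results. Of 9 measured A1 genes 2 were higher in iKO at day 3 and 1 at day 0, and none was lower at either day. The medians were 0.73 at day 3 and 0.44 at day 0. Ggta1, a galactosyltransferase, was at 18.5 CPM in iKO against 4.58 CPM in Ctrl at day 3, 4.04-fold higher (3.20 to 5.14), and 2.13-fold higher at day 0 (1.82 to 2.50). Of 10 measured A2 genes 2 were higher and 1 lower in iKO at day 3, and none was called at day 0 (medians 0.40 and 0.50). Cd109, a membrane protein that restrains TGF-β signalling, was 5.36-fold higher in iKO at day 3 (4.44 to 6.51). Ptgs2, the inducible cyclooxygenase, went the other way at day 3, with 3 counts in iKO and 129 in Ctrl, 40.4-fold lower (13.5 to 198).

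Of 17 measured genes of the gp130 and STAT3 list, 1 was higher in iKO at each day and none lower, close to the share of all genes at day 3, with medians of 0.29 at day 3 and 0.17 at day 0. The gene called at both days was Lif, a ligand of the pathway, at 3.60 CPM in iKO against 0.298 CPM in Ctrl at day 3, and 8.81 CPM in iKO against 2.51 CPM in Ctrl at day 0. Stat3 itself was at 299 CPM in iKO against 326 CPM in Ctrl at day 3, and 193 CPM in iKO against 189 CPM in Ctrl at day 0. The co-receptor gene Il6st was at 221 CPM in iKO against 156 CPM in Ctrl at day 3, 1.42-fold higher (1.36 to 1.49).

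Of 9 measured genes of the NF-κB and cytokine list, 3 were higher in iKO at day 3 and none at day 0, and none was lower (medians 0.66 and 0.03). Il1r1, the interleukin-1 receptor, was at 7.37 CPM in iKO against 1.49 CPM in Ctrl at day 3, 4.94-fold higher (3.31 to 7.59). Tnfrsf1a, a receptor of tumour necrosis factor, was 2.26-fold higher (2.13 to 2.39), and Tnfaip3, a feedback inhibitor of NF-κB, 3.02-fold higher (1.87 to 5.03). Among the inducing ligands, Il1b, Tnf, C1qa, C1qb and C1qc had at most 3 counts in any library, and Il1a had 6 counts in iKO and 9 in Ctrl at day 3, and 6 in iKO and 3 in Ctrl at day 0.

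Among other complement genes, 2 of 10 measured were higher in iKO at day 3 and 1 at day 0, with medians of 0.44 and 0.53. C1ra, a protease of the classical pathway, had 121 counts in iKO and 15 in Ctrl at day 3, 8.59-fold higher (5.01 to 15.8). Cd59a, which blocks the membrane attack complex, was 3.06-fold higher in iKO at day 3 (2.30 to 4.10) and 6.22-fold higher at day 0 (2.62 to 17.9). C2, which like C4b takes part in the classical pathway, was 1.74-fold lower in iKO at day 3 (1.40 to 2.18) and 1.73-fold higher at day 0 (1.07 to 2.85). The initiating subunits of C1q and the central C3 were thus near 0 while C4b, C2 and C1ra were measured.

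Partners of the other genes varied by gene. Of 13 measured TIMPs and metalloproteinases, 2 were higher and 1 lower in iKO at day 3. At day 0, 1 was higher and none lower, and the medians were -0.09 at day 3 and 0.16 at day 0. Timp2 was at 734 CPM in iKO against 308 CPM in Ctrl at day 3, 2.38-fold higher (2.31 to 2.45). Mmp2, a gelatinase, had 63 counts in iKO and 4 in Ctrl at day 3, a ratio of 16.8 (6.24 to 63.5). It was also the gene called at day 0, 2.53-fold higher (1.99 to 3.24). Of 8 measured sphingosine 1-phosphate genes, none was higher and 1 lower in iKO at day 3: Spns2, the exporter of the lipid, by 7.56-fold (5.67 to 10.3). None was called at day 0. S1pr1 was at 437 CPM in iKO against 403 CPM in Ctrl at day 3, 1.08-fold higher (1.05 to 1.12), so the 2 receptors S1pr3 and S1pr1 did not differ to the same degree. Of 11 measured hyaluronan and CD44 partners, 1 was higher and 1 lower in iKO at day 3. At day 0, 1 was higher and none lower. Hyal1, a hyaluronidase, was 2.94-fold higher at day 3 (2.47 to 3.50) and 2.60-fold higher at day 0 (2.04 to 3.33). Has2, a hyaluronan synthase, had 4 counts in iKO and 78 in Ctrl at day 3, 18.3-fold lower (6.87 to 68.8).

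Iron genes, the background of Cp, were higher in iKO at day 3 in 3 of 10 cases and lower in none (median 0.65), and none was called at day 0 (median 0.11). Fth1, the ferritin heavy chain, was at 3554 CPM in iKO against 1131 CPM in Ctrl at day 3, 3.14-fold higher (3.09 to 3.19). Lrp2, an endocytic receptor that can take up lipocalin-2, was 3.20-fold higher (2.88 to 3.56). Transferrin (Trf) was 3.13-fold higher in iKO at day 3 (2.75 to 3.56) and is also made by oligodendrocytes. Of 6 measured intermediate filament genes other than Vim, 1 was higher and 1 lower in iKO at day 3. At day 0, 2 were higher, Gfap and Synm, and none lower. Synm was 2.63-fold higher at day 0 (2.03 to 3.45). Nes, the stem cell filament gene, was at 165 CPM in iKO against 235 CPM in Ctrl at day 3, on the opposite side from Vim.

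**Figure D5:**
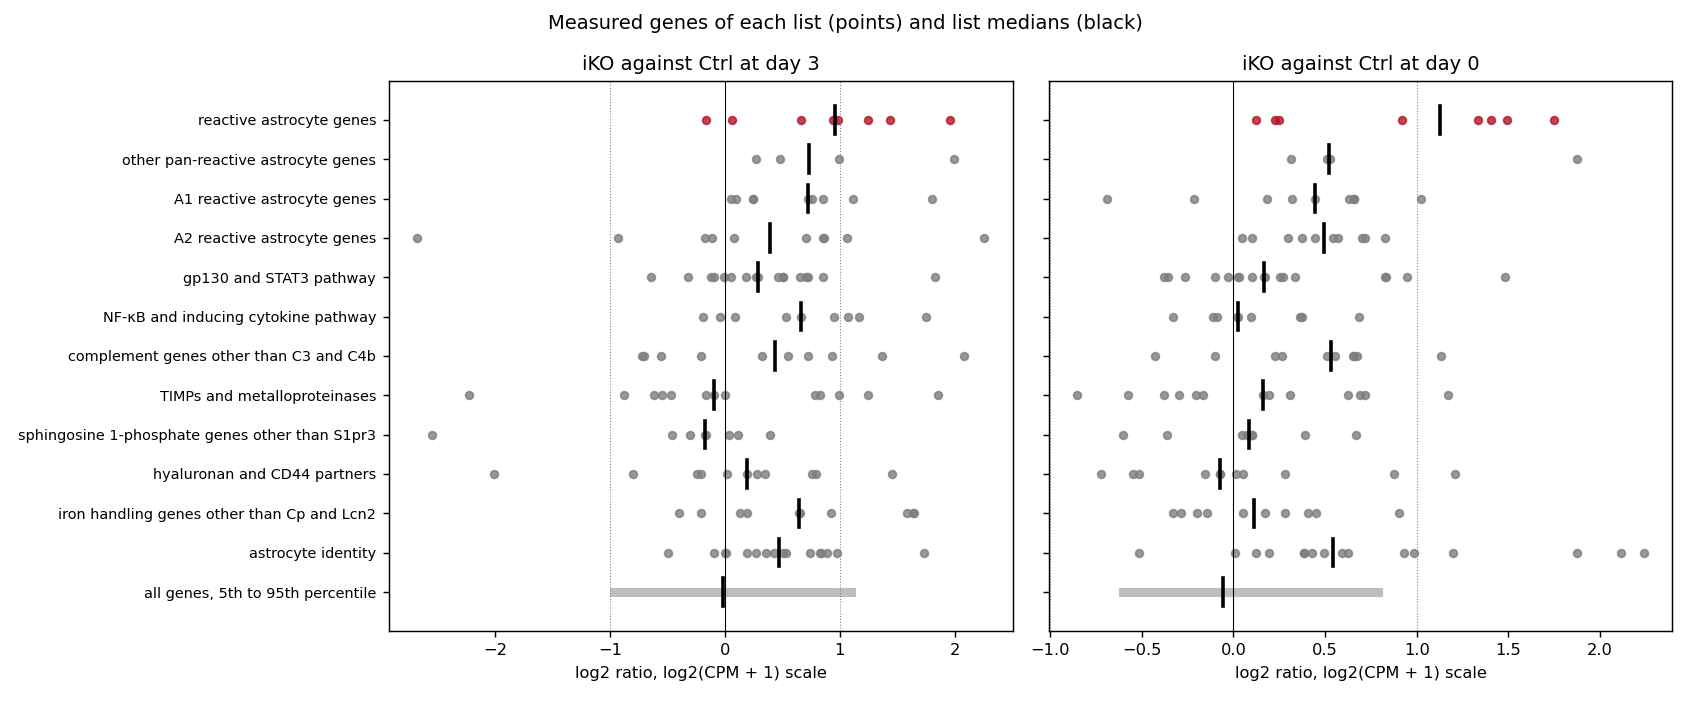
Log2 ratios of iKO to Ctrl at day 3 (left) and day 0 (right) for the measured genes of each list, with list medians in black; the bottom bar spans the 5th to 95th percentile of all genes. The reactive astrocyte genes have medians of 0.96 and 1.13 and the all-gene medians lie near 0.

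Cell type markers moved beside these results, and their part in them was not tested. In bulk RNA, fewer cells of a type and less RNA per cell cannot be told apart. All 16 astrocyte identity genes were measured; 1 was higher in iKO at day 3 and 4 at day 0, with medians of 0.47 and 0.54. Their summed level was 35059 CPM in iKO against 24518 CPM in Ctrl at day 3, and 5495 CPM in iKO against 3745 CPM in Ctrl at day 0. From day 0 to day 3, 14 of the 16 were at least 2-fold higher in each genotype, in step with C4b, Serpina3n, Osmr, S1pr3 and Cp. Of 11 measured oligodendrocyte lineage genes 9 were lower in iKO at day 3 and 4 at day 0, and of 9 measured neuronal genes 5 were lower at day 3.

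Defining markers of other cell types were mostly low. Of 14 microglial markers 3 were measured, with none called between genotypes at either day, and Aif1, Ptprc and Tmem119 had at most 3 counts in any library. The 10 endothelial markers summed to between 4.28 and 6.68 CPM over the 4 libraries, with 1 measured. The 12 fibroblast and mural markers summed to 52.5 CPM in iKO against 120 CPM in Ctrl at day 3, and 173 CPM in iKO against 174 CPM in Ctrl at day 0. Most of this was Cspg4, which oligodendrocyte precursors also express, while Dcn and Lum had at most 3 counts. Of the 12 fibroblast and mural markers 7 were measured, with none higher and 2 lower in iKO at day 3. At day 0, 3 of the 7 were higher and none lower. Acta2 was at 10.3 CPM in iKO against 2.47 CPM in Ctrl at day 0, and Tagln at 4.86 CPM in iKO against 0.817 CPM in Ctrl. Of 3 measured ependymal genes 2 were higher in iKO at each day, with a list sum of 274 CPM in iKO against 72.0 CPM in Ctrl at day 3.

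Genes with the most similar pattern over the 4 libraries were found by Euclidean distance of centred log2(CPM + 1) values over the 11229 genes that averaged 5 CPM or more. The nearest to S1pr3 were Aqp4, the astrocyte water channel, at a distance of 0.148, and Reln, at 0.527. Next to C4b lay Abhd3 (0.328) and Ndrg2 (0.594), and Ndrg2 is strongly expressed in astrocytes. Cd44 had Smpdl3b (0.125) and Itpripl1 (0.169) beside it, Vim had Fzd1 (0.0822) and Gne (0.0844), and Cp had Ak5 (0.0700) and Nfasc (0.122). For Osmr the nearest were Cyp4f14 (0.243) and Adra2a (0.271), and for Serpina3n Csmd1 (0.319) and Ptprt (0.372). Timp1 had Uaca (0.143) and Ccbe1 (0.144). With 4 points and many genes, close neighbours are found for most patterns, and the distances describe these libraries only.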

How the data were processed

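Total RNA of cultured neural stem cells was made into BGI RNA-seq libraries, per the labels' protocols. For every RefSeq transcript the deposited tables hold an expected count beside a level. The submitters' processing notes name HISAT, Bowtie2, StringTie and mm10, without versions; which of them counted reads is unknown here. The deposited level has no unit in its header and was taken as FPKM from its values. The authors' deposited tables hold a log2 ratio and an FDR (an adjusted p-value), per the file headers.

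Expected counts of 55122 transcripts were summed over 17621 genes, named by gene ID from a RefSeq table of GRCm38.p6. TMM sizes came from edgeR 4.0.16 in R 4.3.3 on rounded counts, with factors between 0.962 and 1.06. Log2 ratios used CPM with a pseudocount of 1 CPM, which understates low genes, for the 12976 genes averaging 1 CPM or more. Intervals are exact conditional (Clopper-Pearson) 95% intervals of rounded counts (scipy 1.17.1); since PCR copies are no independent molecules, they and the floors express counting error alone. With 1 library per group, no test across conditions was run. The ratio code was tested on simulated counts.

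The genes and lists were chosen with earlier results of these data known. The text names all 10 genes, some of the 2 genes with the widest ratios per list and comparison, the nearest patterns, and a few list genes for their role. Listed genes not found in the files (2 of the gp130 list, 4 complement, 1 metalloproteinase, 2 microglial and 1 ependymal symbol) were not analysed here, and the summed level of the microglial list is not reported here. The list of 10 serpin neighbours had 2 genes in the files and 0 measured, and 12 neural stem genes had medians of -0.32 at day 3 and -0.13 at day 0 for iKO against Ctrl. As alternatives, the pseudocount was 0.1 or 5 CPM, the minimum was dropped or set to 5 CPM, scaling used library totals or size factors of DESeq2 1.42.0, FPKM replaced CPM, and C4a was added to C4b. Motifs were searched on both strands.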

Additional observations from a re-analysis of the deposited data

Results flagged for a closer look

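Of the 8 measured genes, only C4b had iKO to Ctrl ratios on opposite sides of 1 at the 2 days with both counting intervals leaving out 1. Its day 3 ratio was only 1.12-fold lower, and these intervals do not cover the spread between cultures. The pattern was not particular to C4b. Among the listed genes, C2 (0.573 at day 3, 1.73 at day 0), Mmp24 (0.642 and 1.69) and Timp3 (0.938 and 1.57) also showed it. Hmmr showed the reverse (1.24 at day 3, 0.682 at day 0). The share of all genes with such a pattern was not counted. At day 3 C4b was at 90.8 CPM in iKO against 102 CPM in Ctrl, and at day 0 at 4.66 CPM in iKO against 1.01 CPM in Ctrl. The log2 ratio at day 3 minus that at day 0 was -1.65 on the log2(CPM + 1) scale, and -2.37 (-3.05 to -1.68) without a pseudocount. It was smaller under other settings: -0.84 with a pseudocount of 5 CPM and -0.92 in FPKM, both short of the threshold of 1, and -1.23 for C4b and C4a summed. With 1 library in each group, the difference was not tested.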

How the results depend on the processing

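No paired analysis was possible because each group held 1 library and the labels give no replicate numbers. Of 120 summary values (counts of the genes called in each direction and medians, in 5 comparisons under 8 alternatives), 98 kept their direction and size class. That class allows small changes, so some of the 98 still differed. Library totals gave 5 genes higher in iKO at day 0, in place of 4. A pseudocount or a minimum of 5 CPM gave 2 genes lower from day 0 to day 3 in Ctrl, in place of 3. A pseudocount of 0.1 CPM gave 5 genes higher in iKO at day 3, in place of 3, and 2 in place of 1 with a larger ratio at day 3, and turned that median to -0.31. A pseudocount of 5 CPM left 1 gene higher at day 0 in place of 4, with a median of 0.56; 0 genes lower from day 0 to day 3 in iKO; 0 with a smaller ratio at day 3, in place of C4b and Serpina3n; and medians for day 3 against day 0 of 1.64 in iKO and 1.59 in Ctrl. Deposited FPKM likewise left 1 higher at day 0 (median 0.61) and 1 smaller ratio at day 3, but 2 lower from day 0 to day 3 in iKO, with medians of 1.64 in iKO and 1.65 in Ctrl. With no minimum level, which adds C3 and Lcn2, medians were 0.59 at day 0, 0.97 for day 3 against day 0 in iKO and 0.89 in Ctrl. A minimum of 5 CPM, which removes Timp1, gave 0 lower in iKO and medians of 2.03 in iKO and 3.28 in Ctrl. Library totals also gave 2 lower in iKO, since Cd44 then passed at -1.05; they, and similarly FPKM, moved the all-gene median by 0.12 for iKO against Ctrl at day 0, by -0.13 for day 3 against day 0 in iKO and by -0.20 for the difference between days. Serpina3n at day 3 turned to -0.0175 with library totals and -0.0152 with deposited FPKM. For the difference between days, Osmr turned to -0.98 (0.1 CPM) and -0.0410 (library totals), and S1pr3 to 0.26 (5 CPM) and 0.0937 (FPKM). The pseudocount acts by construction on low genes; for other shifts the cause was not tested. DESeq2 size factors and the sum of C4b and C4a moved no count or median out of its class. C3, Lcn2 and, at day 0, Osmr are limited by depth.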
